A study of Mus musculus with 4 samples.

Results

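The Bcl2 family decides whether the outer membrane of the mitochondrion is opened during apoptosis, and 10 of its genes were followed here in mouse beta cells depleted of the RNA-binding protein NF45. They were 4 pro-survival genes (Mcl1, Bcl2, Bcl2l1 and Bcl2l2) and 6 pro-death genes (Bak1, Bok, Bcl2l11, Bid, Bad and Bik). A member had to have a probe set annotated with its symbol and no other, and its brightest such probe set was used. All 10 were found and all 10 lay above the filter on low values, out of 11742 genes tested. This choice of probe set uses annotation and brightness, not the difference between the groups. The 10 genes themselves were chosen with earlier results of these data known, so counts of them are a description.

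The samples were Beta-TC-6 cells, a mouse pancreatic beta cell line kept in medium with 25 mM glucose and 15% serum. In the siNF45 group (2 samples) a mixture of 3 RNA interference duplexes against NF45, the product of Ilf2, was delivered by lipid transfection. The siNTC group (2 samples) received a negative control siRNA with the same reagent, so both groups carry the transfection itself. All samples come from 1 line, the time between transfection and harvest is not given in the sources used here, and nothing says whether the 2 samples of a group were transfected separately, so each p-value below reflects the spread of these few samples alone, and that spread may be technical. RNA of each sample was hybridised to 1 array of the Affymetrix Mouse Gene 2.1 ST type.

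Pro-survival proteins of this family hold the effectors Bak and Bax in check at the mitochondrial membrane. BH3-only proteins, named for the single short helix they share with the rest of the family, bind the pro-survival proteins and can activate the effectors. Once active, the effectors form pores, cytochrome c leaves the mitochondrion, and caspases are switched on. In beta cells this pathway is known as a route of cell loss under cytokine and endoplasmic reticulum stress.

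The knockdown was visible in its target. Ilf2 read 3.67 and 3.77 on the siNF45 arrays, against 5.79 and 5.98 on the siNTC arrays (log2 expression values). It fell 4.48-fold, a difference of -2.17 (SE 0.13) with a limma adjusted p of 0.020. Of 9 measured beta cell markers, 0 passed the test, which 0.0852% of all tested genes passed. That count alone therefore cannot show that beta cell identity was unchanged. Slc2a2, the glucose transporter Glut2, differed by -0.16, Ins2 by 0.17 and Slc30a8 by 0.10. The values of the 9 markers summed on the linear scale to 3350 and 3300 on the siNF45 arrays, against 3370 and 3130 on the siNTC arrays. The 6 measured markers of other islet cells summed to 505 and 470 in siNF45, against 817 and 648 in siNTC. Sst (somatostatin) differed by -0.89, Irx1 by -0.55, Irx2 by -0.39, Gcg (glucagon) by -0.02 and Ppy (pancreatic polypeptide) by 0.52, and none of these 5 passed (Gcg and Ppy were added after their values were seen). Irx1, Vim and Col1a2 cleared the filter on low values only through the siNTC arrays. The 14 measured markers of non-islet cells, 10 of them under the filter, summed to 49 and 49 in siNF45, against 45.9 and 44.1 in siNTC. Of those tested, Krt7 differed by 0.67, Vim by -0.27 and Col1a2 by -0.19. The part of these markers in the results on the Bcl2 family was not tested. The values come from whole cultures, so fewer cells of a kind and less RNA per cell cannot be told apart.

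All 10 Bcl2 family genes read lower after NF45 depletion, and no single gene passed the test. On each of them both siNF45 arrays lay below both siNTC arrays, an arrangement that 32.6% of all tested genes showed. The differences ran from -0.70 for Mcl1 to -0.15 for Bad on the log2 scale, with limma adjusted p of 0.124 to 0.601. Of all tested genes, 0.0852% were called at an adjusted p under 0.05, 0.0766% lower and 0.00852% higher. At an unadjusted p under 0.05, 5 of the 10 members were lower (Mcl1, Bok, Bcl2l2, Bik and Bcl2l11) and 0 were higher, against 13.2% lower and 4.02% higher among all tested genes (17.2% in either direction). The count was 3 after centring each array on its median over the tested genes. Under that setting 2120 of 11742 tested genes were below the same threshold in either direction. Of the 5 members left by a filter at the 70th percentile the count was 2, against 1618 of 7977 tested genes in either direction. At an adjusted p under 0.10, 0 of the 10 were called, against 1.62% of all tested genes. The median difference over the 10 members was -0.31, and over all tested genes -0.07, with 61.7% of all tested genes below 0. The pro-survival genes had a median of -0.37 and the pro-death genes one of -0.31.

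**Figure D1:**
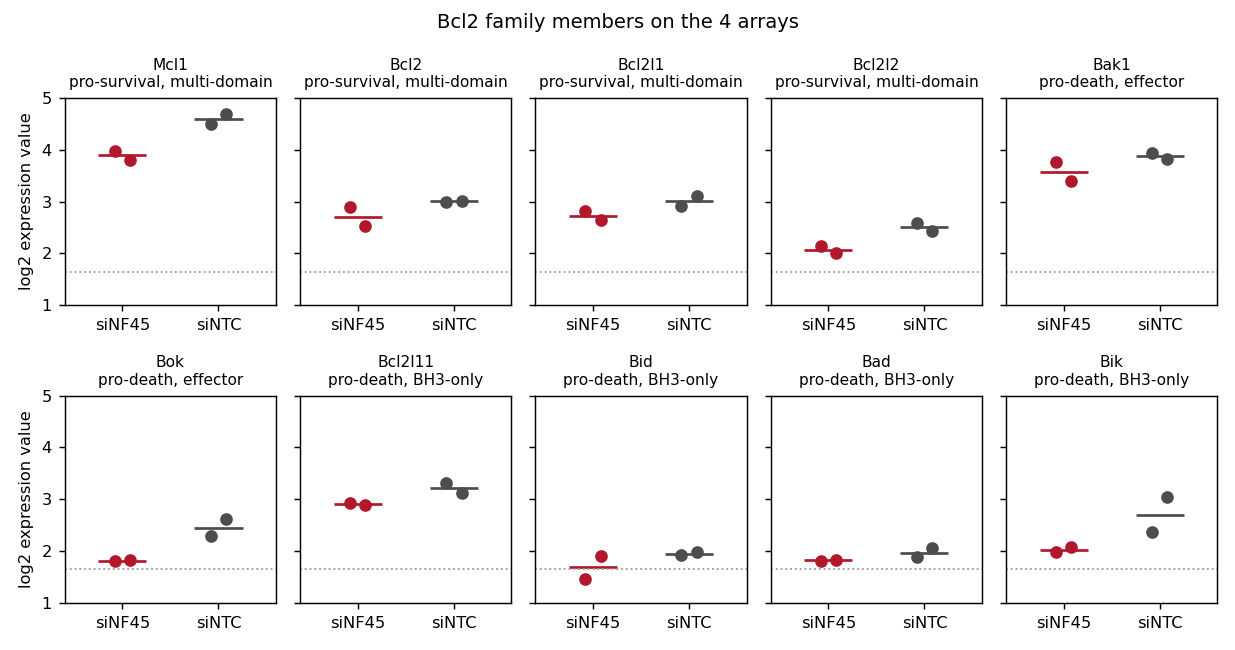
Log2 expression value (y axis) of each of the 10 members on the siNF45 arrays (red, left) and the siNTC arrays (grey, right). Points are arrays, the horizontal bar is the mean of the 2 arrays, and the dotted line is the filter at 1.65. In every panel both red points lie below both grey points, and Mcl1 read 3.97 and 3.81 in siNF45, against 4.49 and 4.69 in siNTC.

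Upstream sequences are shown for the members with the smallest p on each side, Mcl1 for survival and Bok for death, as RefSeq places them on the mouse build GRCm38.p6. Each is the 250 bases before the annotated start, 5′ to 3′ on the gene's strand, for Mcl1 at chr3:95658471-95658720 (plus strand) and for Bok at chr1:93685325-93685574 (plus strand). Capitals mark matches on either strand to 4 motifs that were searched: the GC box GGGCGG, the CCAAT box CCAAT, the ETS motif CCGGAAG and the CREB half-site TGACG.
Mcl1: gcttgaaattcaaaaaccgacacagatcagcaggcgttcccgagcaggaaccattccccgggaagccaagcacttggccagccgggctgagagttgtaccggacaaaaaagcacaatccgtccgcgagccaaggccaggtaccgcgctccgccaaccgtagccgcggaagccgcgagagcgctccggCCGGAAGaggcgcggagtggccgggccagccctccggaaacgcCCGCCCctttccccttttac
Bok: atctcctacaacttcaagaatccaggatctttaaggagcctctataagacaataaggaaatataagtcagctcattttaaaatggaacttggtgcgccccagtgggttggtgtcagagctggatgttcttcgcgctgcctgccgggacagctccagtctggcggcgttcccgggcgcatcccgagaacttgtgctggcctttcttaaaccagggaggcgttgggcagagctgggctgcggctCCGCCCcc
The Mcl1 window held 1 GC box and 1 ETS motif and the Bok window 1 GC box, with no overlap between matches. A match is a run of letters and not a site shown to be bound. Of the 10 members 9 matched the RefSeq table, with 13 windows in all because some genes have several starts. The GC box was in 7 of the 9 genes (8 of 13 windows), against 32.7% of all 32851 windows. The CCAAT box was in 3 of the 13 windows, against 33.8% of all, the ETS motif in 2, against 6.9%, and the CREB half-site in 1, which belongs to Bcl2, against 17.8%. The member windows had a median of 63.6% G and C, against 52.4% over all windows, and the part of base composition in these counts was not tested.

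Among the pro-survival genes, Mcl1 had the most negative difference. Its protein is a short-lived survival factor that sequesters Bak and BH3-only proteins. Mcl1 read 3.97 and 3.81 on the siNF45 arrays, against 4.49 and 4.69 on the siNTC arrays. Both siNF45 arrays were low and the gap between the groups exceeded the spread within either. It averaged 3.89 ± 0.11 in siNF45 and 4.59 ± 0.14 in siNTC (SD, n = 2 each), 1.62-fold lower, with a difference of -0.70 (SE 0.14, 95% interval -1.04 to -0.36) and a limma adjusted p of 0.124. It stood at rank 251 of the 11742 genes by p, and 2.79% of tested genes had a difference at or below it. A dimmer probe set of Mcl1, under the filter, read 1.18 and 1.13 in siNF45, against 1.30 and 1.12 in siNTC, and its groups overlapped. With both probe sets averaged the Mcl1 difference was -0.38. The difference stayed below 0 over the 12 alternatives run, though only quantile normalization, centring and averaging could have changed its sign. With all 4 arrays the limma adjusted p was 0.071 to 0.258.

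Bcl2l2 encodes Bcl-w, a pro-survival relative of Bcl-xL. It read 2.15 and 2.00 in siNF45, against 2.59 and 2.44 in siNTC. The groups were apart by more than the spread within each, at 2.08 ± 0.11 in siNF45 and 2.51 ± 0.11 in siNTC (SD, n = 2 each). The difference was -0.44 (SE 0.13, 95% interval -0.77 to -0.11), with a limma adjusted p of 0.201.

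Bcl2l1 and Bcl2, whose products Bcl-xL and Bcl-2 are the best known survival factors of the family, had differences nearer to 0. Bcl2l1 read 2.81 and 2.64 in siNF45, against 2.92 and 3.10 in siNTC. Its groups came within a narrow gap of each other, and the difference was -0.29 (SE 0.14, 95% interval -0.62 to 0.05, limma adjusted p = 0.357), or -0.19 without siNTC replicate 2. The Bcl-xS splice form, which acts in the opposite sense, was not separated from Bcl-xL by this probe set. Bcl2 read 2.89 and 2.52 in siNF45, against 3.0 and 3.02 in siNTC. The siNTC arrays were nearly equal while siNF45 replicate 2 was the low one, and the difference was -0.30 (SE 0.16, 95% interval -0.70 to 0.09, limma adjusted p = 0.392). Without siNF45 replicate 2 it was -0.12, and without siNF45 replicate 1 it was -0.49. A second probe set of Bcl2, also under the filter, read 0.97 and 0.96 in siNF45, against 1.03 and 1.16 in siNTC.

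The effector genes in the set were Bak1 and Bok. Bak1 encodes Bak, which sits in the outer mitochondrial membrane and forms pores when released from Mcl-1 and Bcl-xL. It read 3.76 and 3.39 in siNF45, against 3.94 and 3.83 in siNTC. Again siNF45 replicate 2 was the low array, and the difference was -0.31 (SE 0.16, 95% interval -0.71 to 0.09, limma adjusted p = 0.394), or -0.12 without that array and -0.49 without siNF45 replicate 1. Bok is a Bak- and Bax-like protein that is largely found at the endoplasmic reticulum. It read 1.81 and 1.82 in siNF45, against 2.29 and 2.61 in siNTC. The siNF45 arrays were level, both were close to the filter at 1.65, and the siNTC arrays were spread more widely. Bok averaged 1.81 ± 0.01 in siNF45 and 2.45 ± 0.23 in siNTC (SD, n = 2 each), 1.55-fold lower, with a difference of -0.64 (SE 0.15, 95% interval -1.0 to -0.27) and a limma adjusted p of 0.144.

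Of the BH3-only genes, Bcl2l11 encodes Bim, which binds all the pro-survival proteins and can activate Bax and Bak directly. It read 2.92 and 2.89 in siNF45, against 3.32 and 3.13 in siNTC. The siNF45 arrays were level and below both controls, with a difference of -0.32 (SE 0.13) and a limma adjusted p of 0.288. Bik, a BH3-only protein of the endoplasmic reticulum, read 1.98 and 2.08 in siNF45, against 2.36 and 3.04 in siNTC. Bik averaged 2.03 ± 0.07 in siNF45 and 2.70 ± 0.48 in siNTC (SD, n = 2 each), with siNTC replicate 2 standing well above the other 3 arrays. The difference was -0.67 (SE 0.23, 95% interval -1.25 to -0.09, limma adjusted p = 0.242), or -0.33 without siNTC replicate 2 and -1.01 without siNTC replicate 1.

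The last BH3-only genes, Bid and Bad, lay close to the filter. Bid is cut by caspase-8 and so links death receptors to mitochondria. It read 1.47 and 1.90 in siNF45, against 1.92 and 1.98 in siNTC. Only siNF45 replicate 1 was clearly low, below the filter level, and the other array came close to the controls. The difference was -0.26 (SE 0.17, 95% interval -0.69 to 0.16, limma adjusted p = 0.482), or -0.05 without siNF45 replicate 1 and -0.48 without siNF45 replicate 2. Bad, which neutralises Bcl-2 and Bcl-xL and is kept inactive by phosphorylation and 14-3-3 proteins, read 1.81 and 1.83 in siNF45, against 1.88 and 2.06 in siNTC. Its difference was -0.15 (SE 0.13, 95% interval -0.46 to 0.16, limma adjusted p = 0.601), or -0.06 without siNTC replicate 2 and -0.24 without siNTC replicate 1. A brighter probe set shared by Bad and its neighbour Gpr137, which was outside the rule, read 4.03 and 3.89 in siNF45, against 4.28 and 4.16 in siNTC, a difference of -0.26 that cannot be assigned to either gene.

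**Figure D2:**
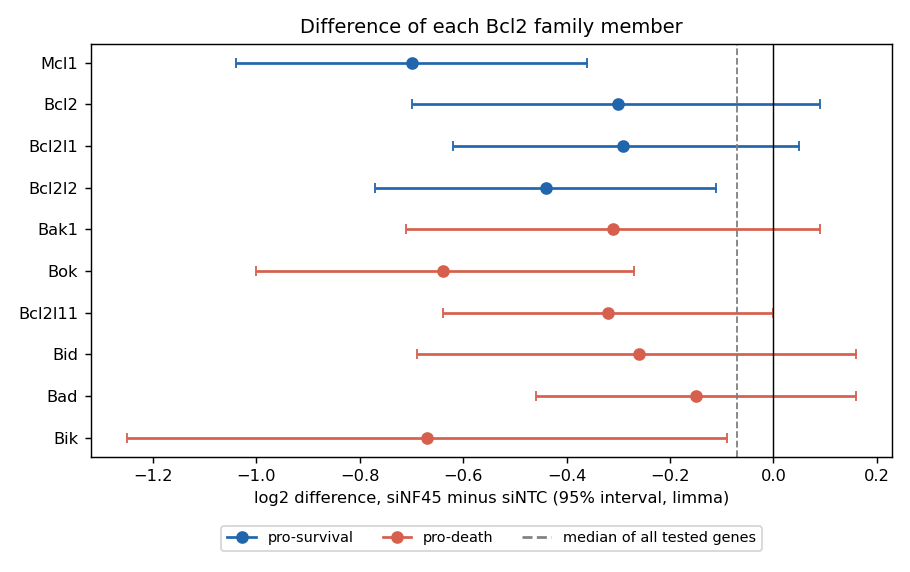
Log2 difference, siNF45 minus siNTC (x axis), of each member with its 95% interval from limma. Blue is pro-survival, red is pro-death, the solid line is 0 and the dashed line is the median of all tested genes at -0.07. All 10 points lie left of the dashed line, and the intervals of Mcl1, Bcl2l2, Bok, Bcl2l11 and Bik end below 0.

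The question of balance between survival and death was put to each array by setting every gene against its own siNTC mean. The pro-survival genes then averaged -0.33 and -0.54 on the siNF45 arrays, against -0.03 and 0.03 on the siNTC arrays. The pro-death genes averaged -0.40 and -0.38 in siNF45, against -0.08 and 0.08 in siNTC. Both sides were thus lower on both siNF45 arrays. The mean of all tested genes was -0.05 and -0.12 on the same siNF45 arrays, against 0.03 and -0.03 in siNTC. Pro-survival minus pro-death came to 0.08 and -0.16 in siNF45, against 0.05 and -0.05 in siNTC. The siNF45 values lie on either side of the siNTC values, and the mean gap of -0.04 was smaller than the distance between replicates. With the dim Mcl1 probe set averaged in, the gap was 0.06.

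**Figure D3:**
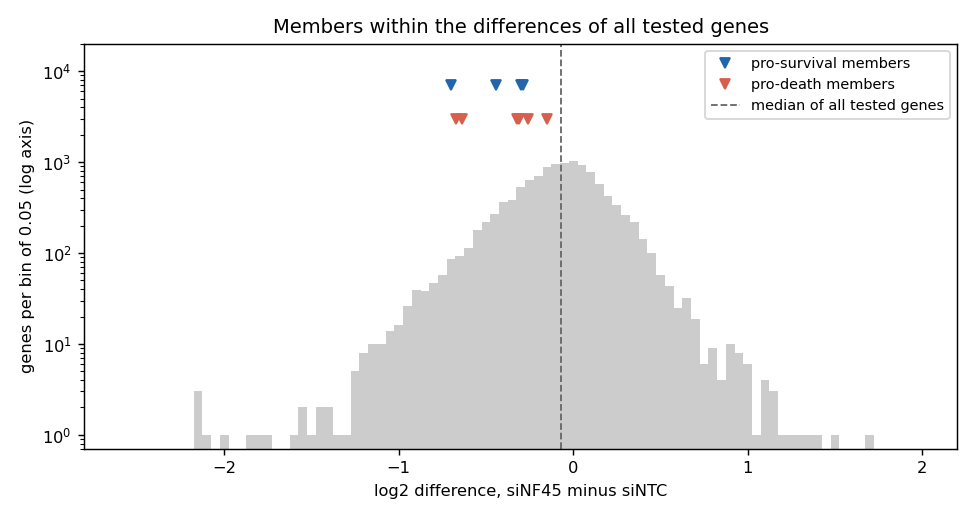
Distribution of the log2 difference, siNF45 minus siNTC, over the 11742 tested genes (grey bars, number of genes per bin of 0.05 on a log axis). Triangles mark the 4 pro-survival (blue) and 6 pro-death (red) members and the dashed line the median of all genes at -0.07. The members lie between -0.70 and -0.15, below the median and short of the extreme low end. Of tested genes, 2.79% had a difference at or below that of Mcl1 and 36.99% at or below that of Bad.

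The shift of the whole array bears on these values. The tested genes had array medians of 3.72 and 3.60 in siNF45, against 3.82 and 3.76 in siNTC. Centring each array on that median moved the median difference of all genes to 0.06, and the members then ran from -0.57 for Mcl1 to -0.02 for Bad, with Bcl2 and Bak1 at -0.18, Bcl2l1 at -0.16, Bcl2l11 at -0.19 and Bid at -0.13. After centring all 10 members were still below 0, where 40.1% of tested genes were, and 8 of the 10 kept groups that did not overlap, where 18.1% of tested genes had both siNF45 arrays lower. The exceptions were Bid and Bad. After quantile normalization 9 of the 10 did not overlap, Bid being the exception, against 27.3% of tested genes.

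The rest of the family was mostly too dim to test. Of 14 further symbols, 10 had a probe set of their own and 8 of these lay under the filter, among them the p53-inducible BH3-only genes Bbc3 (Puma) and Pmaip1 (Noxa), which were chosen after their values were seen. Bbc3 read 1.59 and 1.37 in siNF45, against 1.39 and 1.35 in siNTC, and Pmaip1 1.27 and 1.35 in siNF45, against 1.53 and 1.35 in siNTC. Bcl2l13, a multi-domain relative linked to mitophagy, was tested and read 4.45 and 4.34 in siNF45, against 4.29 and 4.02 in siNTC. It was higher on both siNF45 arrays, with a difference of 0.24 (SE 0.14) and a limma adjusted p of 0.448. The BH3-only gene Bmf averaged 1.64 in siNF45 and 1.66 in siNTC, at the level of the filter (1.65), and differed by -0.02. Bax was not analysed here.

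The wider pathway gave 0 called genes in either direction among 48 tested genes in 8 lists, by limma at an adjusted p under 0.05. After centring the arrays 1 was called higher, Tnfrsf10b, with a difference of 0.85 and a limma adjusted p of 0.040. Under that setting 1.46% of all tested genes were called in either direction. Tnfrsf10b entered the test only because its siNF45 arrays were high, so its call is given as a description. In the fit as designed, 7 of the 48 were lower and 3 higher (Tnfrsf10b among them) at an unadjusted p under 0.05. Of all tested genes, 13.2% were lower and 4.02% higher at that threshold. The median difference of the 48 genes was -0.05, against -0.07 over all tested genes. The lowest single gene was Bnip3, a BH3-bearing mitophagy receptor known as a target of hypoxia signalling. It read 3.80 and 3.41 in siNF45, against 4.38 and 4.39 in siNTC, a difference of -0.78 (SE 0.16, limma adjusted p = 0.130), while Becn1, which encodes the autophagy protein Beclin 1, differed by -0.06. The other list members are described in their order along the pathway.

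Upstream, 6 of 7 tested death receptor and adaptor genes were below 0, where 61.7% of all tested genes were. Their median was -0.32, against -0.07 over all tested genes. The list median was -0.14 without siNF45 replicate 2 and -0.45 without siNF45 replicate 1. It was -0.17 without siNTC replicate 2, -0.41 without siNTC replicate 1 and -0.38 at the 70th percentile filter. After centring it was -0.19, where the median of all tested genes was 0.06. The exception was Tnfrsf10b, the mouse TRAIL receptor, which read 2.02 and 2.07 in siNF45, against 1.23 and 1.42 in siNTC. Its siNTC arrays lay under the filter at 1.65, so it was tested only because its siNF45 arrays were high, and its difference of 0.72 (SE 0.13, limma adjusted p = 0.102) is given as a description. Fadd, the adaptor that recruits caspase-8, differed by -0.38 and Tnfrsf1a, a receptor for tumour necrosis factor, by -0.44, and neither passed. Fas lay under the filter at 1.54 and 1.65 in siNF45, against 1.25 and 1.16 in siNTC and was also chosen after its values were seen. Among 14 tested genes for Mcl-1 turnover and for proteins that bind the family, the median was -0.02, or 0.11 after centring. Ywhab, a 14-3-3 protein that can hold phosphorylated Bad, differed by -0.35, its relative Ywhag by -0.23, and Btrc, a ubiquitin ligase subunit, by 0.31.

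Downstream, the 8 tested apoptosome and caspase genes had a median of 0.09, with 4 above and 4 below 0. That median had no settled sign, at 0.00 with no filter, -0.05 at the 70th percentile filter and 0.02 without siNF45 replicate 1. After centring it was 0.21, where the median of all tested genes was 0.06. Aifm1, the mitochondrial flavoprotein released in cell death, read 4.83 and 4.79 in siNF45, against 4.46 and 4.48 in siNTC. Its groups were tight and apart, with a difference of 0.34 (SE 0.12) and a limma adjusted p of 0.234. The DNase gene Dffb differed by 0.32 and Apaf1, the scaffold of the apoptosome, by 0.25, so the 3 apoptosome and caspase genes with the smallest p were all on the higher side, without passing. Among 6 tested inhibitor of apoptosis genes and antagonists the median was -0.08, or 0.05 after centring, 0.02 without siNTC replicate 1 and -0.24 without siNTC replicate 2. Birc5 (survivin), which also works in mitosis, read 4.31 and 4.05 in siNF45, against 5.04 and 4.76 in siNTC, with a difference of -0.72 (SE 0.16, limma adjusted p = 0.135). The protease gene Htra2 differed by -0.31 and Birc6 by 0.11. The 9 genes of outer membrane channels and mitochondrial dynamics had a median of -0.05 (0.08 after centring and 0.02 without siNF45 replicate 2), with the fusion genes Mfn1 at -0.31 and Mfn2 at -0.21 and the fission factor Mff at 0.12.

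**Figure D4:**
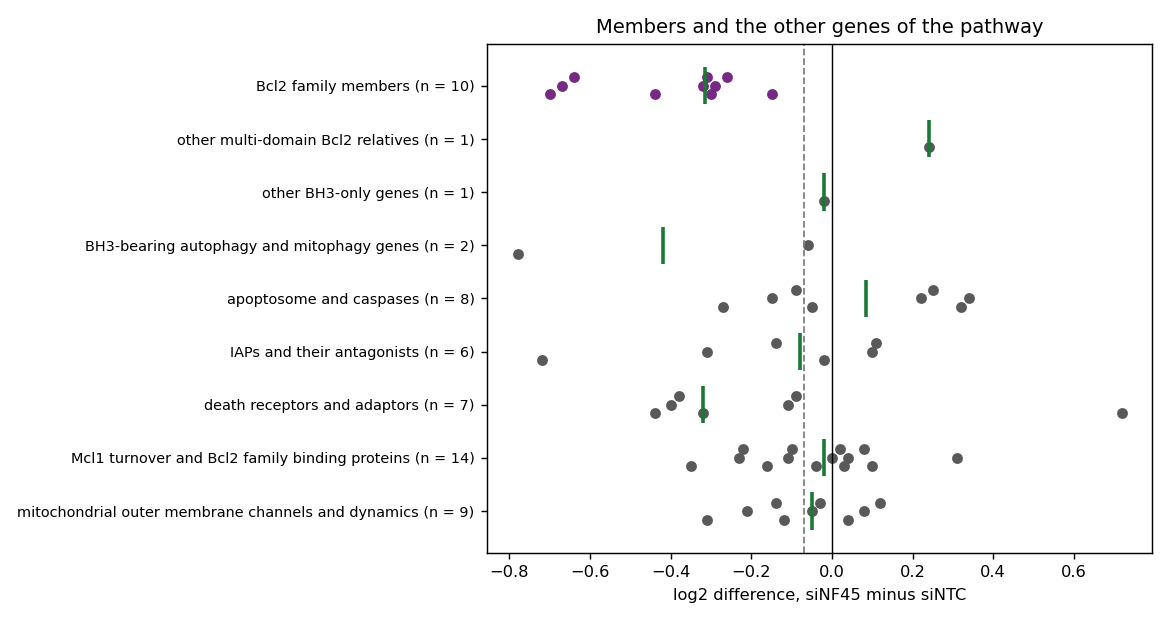
Log2 difference, siNF45 minus siNTC (x axis), of the 10 members (purple) and of the tested genes of 8 pathway lists (grey), 1 point per gene. Green bars are medians, the solid line is 0 and the dashed line is the median of all tested genes. The members have a median of -0.31, the death receptor list one of -0.32, and the apoptosome and caspase list one of 0.09. The list medians moved with single arrays. Centring raised them together with the median of all tested genes, which went from -0.07 to 0.06.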

How the data were processed

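The authors deposited log2 values, 1 for each probe set on each array, produced with Transcriptome Analysis Console, per the submitters' processing notes. The sources used here give neither its version nor its algorithm or background correction. No source states the log base, which was taken as log2 from the range of 0.12 to 12.21, so every fold rests on that base. Array medians were 1.66 and 1.66 (siNF45) and 1.64 and 1.64 (siNTC), genes were not centred, and direction follows the sample labels. No detection call was used, and the number of arrays limits the precision.

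Of 41345 probe sets, 23521 carried 1 symbol, 1814 several and 16010 none. The brightest probe set per gene was kept and had to average 1.65 or more over the 4 arrays (the median probe set), leaving 11742 genes. Values of different probe sets were not compared as levels. The siNF45 and siNTC arrays were compared in R 4.3.3 by limma 3.58.1 (lmFit, then eBayes, without covariates; 2 residual and 3.69 prior degrees of freedom), with Benjamini-Hochberg adjustment over all 11742 genes and a threshold of 0.05. The script was tested on simulated data. Members and lists were chosen with earlier results of these data known. Named genes were all members, Ilf2 and, of each list, genes that passed or else the 3 with the smallest p. Promoter windows came from RefSeq.

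Alternatives were other filters, quantile normalization, centring, eBayes with a trend or robust, averaged probe sets, the replicate number as a block, another threshold and leaving out each array. Replicate numbers were not taken to pair the samples.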

Additional observations from a re-analysis of the deposited data

How the results depend on the processing

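Of 115 alternative values of the 10 members (5 members under the 70th percentile filter, 10 elsewhere), 115 stayed below 0. Only quantile normalization, centring and, for Mcl1 and Bcl2, averaged probe sets could have changed a sign. The other settings leave the difference as it was or, without 1 array, cannot reverse groups that do not overlap. In the fits with all 4 arrays 0 were called, with limma adjusted p from 0.071 to 0.961. The count of called members was 0 under every alternative, while called genes over the whole table numbered 10 as designed (1 higher, 9 lower), 87 at the 70th percentile filter (17 higher, 70 lower), 62 after quantile normalization (18 and 44), 172 after centring (71 and 101), 174 with a trend in eBayes (40 and 134) and 190 at an adjusted p under 0.10 (30 and 160), and the cause was not tested. Leaving out 1 array gave 0 genes in each of 4 fits, with 1236 to 1670 at an unadjusted p under 0.05; the lone array is then assumed to vary like the other group. Same-numbered samples deviated together with a correlation of 0.00615 over genes, which gives no ground for pairing, and the fit with the replicate block called 0 genes (1909 at an unadjusted p under 0.05) and 0 members, with Mcl1 at -0.70 and a limma adjusted p of 0.258. The pro-survival median was -0.37 as designed, -0.24 after centring and -0.50 to -0.28 without 1 array. The pro-death median was -0.31, -0.19 after centring and -0.41 to -0.27 without 1 array. The gap between the means of the sides turned from -0.04 to 0.06 with averaged probe sets and ranged from -0.16 to 0.08 without 1 array, so its sign is not settled. Members not overlapping between groups, counted after the values were seen, numbered 8 to 10 under the alternatives with all 4 arrays. There 18.1% to 32.4% of all tested genes showed the same arrangement. Without 1 array the 10 of 10 was fixed in advance, because groups already apart cannot then overlap. The share of all tested genes was then 42.2% to 51.1%. No detection call was used, so signal over background could not be judged for the members closest to the filter.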
